A study of Mus musculus with 18 samples.

Results

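The genes described here were the mouse MHC class II genes H2-Aa, H2-Ab1 and H2-Eb1, the invariant chain gene Cd74, the peptide exchange genes H2-DMa and H2-DMb1, and Ciita, their transcriptional coactivator. They were found by gene symbol among the identifiers of the raw count table. All 7 were present among 45706 genes, and all 7 passed the filter on low counts that left 11308 genes for testing. Expression was measured by sequencing of poly(A) RNA from primary macrophages that were differentiated from C57BL/6 marrow with 30% L929-conditioned medium. The labels give an age of 12 days for every sample. Wild-type (WT) cells were compared with RelA-TA-KI cells, in which Rela, coding for the NF-kB subunit RelA, carries a knock-in allele. Each genotype was left unstimulated or received LPS at 100 ng/ml, a bacterial ligand of TLR4, or the cytokine TNF at 10 ng/ml, and was collected at 0.5, 1, 3 or 8 h. This gave 9 conditions with 1 library per genotype, 18 libraries in all. The sources name no separate animals or cultures, so each p-value below measures the spread among these libraries, and genotype and culture cannot be told apart. A count of Rela reads does not show the knock-in, so the genotype labels could not be checked from the counts.

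MHC class II molecules are pairs of an alpha and a beta chain that carry peptides from endosomes to the cell surface, where helper T cells read them. The invariant chain CD74 holds newly made pairs together and blocks the groove, and H2-DM then swaps the last piece of CD74 for a peptide. CIITA binds no DNA itself. It docks on a complex of RFX, CREB and NF-Y proteins that sits on a conserved X and Y box before each class II gene, and in macrophages interferon-gamma is its best known inducer.

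The X and Y boxes are the shared sequence through which these genes are known to be controlled together, so the promoters of an alpha and a beta chain gene are shown first. Both are from RefSeq on GRCm38.p6 and run from 130 to 11 bases before the annotated start site. Capitals mark matches to CTNGNAAC (an X-type motif) and GATTGG (a Y-type motif, the NF-Y letters). These letters were chosen after the sequences had been read.
H2-Aa, chr17:34287834-34287953, minus strand: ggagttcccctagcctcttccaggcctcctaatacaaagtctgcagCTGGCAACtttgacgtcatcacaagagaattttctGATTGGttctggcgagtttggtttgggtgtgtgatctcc
H2-Eb1, chr17:34305737-34305856, plus strand: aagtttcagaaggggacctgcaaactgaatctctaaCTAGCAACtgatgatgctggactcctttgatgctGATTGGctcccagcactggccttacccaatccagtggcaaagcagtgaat

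In H2-Aa the X-type match began 84 bases before the start site and the Y-type match 49 bases before it, with 27 bases between them. In H2-Eb1 they began at 94 and 60 bases, with 26 between, and a reverse-strand Y-type match began at 35. The H2-DMb1 window held the same order, an X-type match at 97 bases and a Y-type match at 62 with 27 between. Shares over all genes were counted in whole RefSeq promoter windows, which are longer than the stretches printed above. Searched on both strands, the X-type letters were present in 13.2% of 32841 such windows and the Y-type letters in 16.1%. An X-type match followed by a Y-type match on the gene's strand within 30 bases was present in 25 windows, or 0.0761%. H2-Aa, H2-Eb1 and H2-DMb1 were among them, as was H2-Ob. The letters were chosen with member sequences in view and the limit admits their gaps, so the place of these members among the 25 is not a test. A match is a description of the letters and not evidence of binding. The windows listed for H2-DMa lie away from the gene as counted and were not used. For H2-Ab1 and Ciita no usable window was available, and Cd74 on chromosome 18 was left out of the search by member. Cd74, H2-Ab1 and Ciita were not among the genes of the 25 windows.

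In mm10 coordinates, the 5 members with an H2 name lie in the H2 complex on chromosome 17. H2-DMa (ENSMUSG00000037649.9) spans 34135182 to 34139101, H2-DMb1 (ENSMUSG00000079547.3) 34153072 to 34160230 and H2-Ab1 (ENSMUSG00000073421.5) 34263209 to 34269418. H2-Aa (ENSMUSG00000036594.12) spans 34282744 to 34287827 and is the member of this group on the minus strand, and H2-Eb1 (ENSMUSG00000060586.10) spans 34305877 to 34316199. Ciita (ENSMUSG00000022504.9) is on chromosome 16 from 10488178 to 10527564, and Cd74 (ENSMUSG00000024610.12) on chromosome 18 from 60803848 to 60812646. Counts covered all exons of a gene, so the alternative promoters of Ciita were not separated.

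Libraries held 4663650 to 6721917 counts, with means of 5608518 in WT and 5187884 in RelA-TA-KI. At this depth Ciita had 4 to 190 reads per library and Cd74 121 to 868. The cells carried their labelled identity: the 9 macrophage markers summed to 9509 to 14681 CPM in WT and 9194 to 15732 CPM in RelA-TA-KI. Here CPM is a read count scaled to the size of its library with TMM factors. T and NK cell markers were nearly absent, with sums of at most 0.646 CPM in WT and 0.910 CPM in RelA-TA-KI. In WT, Cd3e, Ncr1 and Ifng, the gene of interferon-gamma, had no read in any library, and in RelA-TA-KI Ncr1 had none.

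Cd74 had the highest median level of the 7 genes and Ciita the lowest. On a per-length scale (CPM per kb of exon), the WT medians over 9 libraries were 84.0 for Cd74, 30.1 for H2-Eb1, 24.3 for H2-Ab1, 22.0 for H2-Aa, 8.74 for H2-DMb1, 4.15 for H2-DMa and 0.625 for Ciita. Within libraries, H2-Aa was below H2-Ab1 in 9 of 9 WT libraries and below H2-Eb1 in 9 of 9. H2-Eb1 was below H2-Ab1 in 3 of 9, so the order of these beta chain genes varied between conditions. In RelA-TA-KI the per-length medians were 22.1 for Cd74, 12.5 for H2-Ab1, 8.27 for H2-Eb1, 6.74 for H2-Aa, 6.50 for H2-DMb1, 3.55 for H2-DMa and 0.261 for Ciita. Ciita was below H2-DMa in 7 of 9 RelA-TA-KI libraries and above it at 8 h of both stimuli. Together the 7 genes took 0.0174% to 0.0369% of the reads of a WT library and 0.00796% to 0.0176% of those of a RelA-TA-KI library.

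The class II chains and Cd74 were lower in RelA-TA-KI cells than in WT cells, whether or not the cells had been stimulated. H2-Eb1, Cd74, H2-Aa and H2-Ab1 fell by 1.67, 1.63, 1.49 and 0.99 on the log2 scale, and H2-DMb1 by 0.42. Ciita and H2-DMa did not pass the test. Ciita levels were below WT in the pairs up to 3 h and above it in both pairs at 8 h, and the test of late against early times did not pass.

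H2-Aa, the alpha chain gene of the I-A molecule, had a lowest level of 25.1 CPM, a median of 41.2 CPM and a highest of 58.0 CPM in the 9 WT libraries. The 9 RelA-TA-KI libraries had 8.96, 12.6 and 38.4 CPM. A single RelA-TA-KI library, LPS 8 h at 38.4 CPM, reached the WT range, and the WT level was 1.26 to 5.19 times the RelA-TA-KI level within the 9 matched pairs. The fitted difference (RelA-TA-KI minus WT) was -1.49 ± 0.16 on the log2 scale (SE, 9 pairs, edgeR quasi-likelihood adjusted p = 5.71e-05).

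H2-Ab1, which encodes the beta chain of the same molecule, ran from 27.7 to 78.8 CPM in WT with a median of 39.8 CPM. In RelA-TA-KI it ran from 16.7 to 44.3 CPM with a median of 20.4 CPM. Both 8 h libraries of RelA-TA-KI lay inside the WT range and the other 7 below it. The WT level was 1.66 to 2.61 times higher within pairs, the narrowest spread of the class II chains, and the fitted difference was -0.99 ± 0.07 (edgeR adjusted p = 1.14e-06).

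H2-Eb1 is the beta chain gene of I-E, whose alpha chain gene is a pseudogene in this strain (H2-Ea-ps, 1 read in the 18 libraries). It had 16.1, 35.7 and 48.5 CPM in WT (lowest, median, highest) and 8.61, 9.79 and 17.1 CPM in RelA-TA-KI. Again the LPS 8 h library of RelA-TA-KI was the single one inside the WT range. The fitted difference was -1.67 ± 0.13 (edgeR adjusted p = 1.98e-06).

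Cd74 had 58.1, 118 and 242 CPM in WT and 21.7, 31.1 and 124 CPM in RelA-TA-KI. The 7 RelA-TA-KI libraries before 8 h, at 34.8 CPM or less, all lay below the lowest WT library, the unstimulated one. The fitted difference was -1.63 ± 0.13 (edgeR adjusted p = 7.46e-06).

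The peptide exchange genes differed less. H2-DMb1 had 10.8, 13.0 and 23.9 CPM in WT and 7.29, 9.65 and 16.8 CPM in RelA-TA-KI, a fitted difference of -0.42 ± 0.09 (edgeR adjusted p = 0.00448). Its near-identical neighbour H2-DMb2 had 1 to 10 reads per library, and reads shared by the pair may have been split or lost in counting. H2-DMa had 4.58, 6.81 and 15.8 CPM in WT and 3.52, 5.83 and 13.6 CPM in RelA-TA-KI, with a fitted difference of -0.33 ± 0.11 that did not pass (edgeR adjusted p = 0.0634). When libraries were scaled by their totals instead of TMM, it passed at -0.41 (adjusted p = 0.024).

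In total 5 of the 7 genes were lower in RelA-TA-KI by this test, where 9.46% of all tested genes were lower and 19.7% differed in either direction. The median difference of the 7 was -0.99, and that of all tested genes -0.0047. H2-Aa, H2-Ab1, H2-Eb1, Cd74 and H2-DMb1 were lower in RelA-TA-KI in 9 of 9 pairs, as were 6.11% of all tested genes. H2-DMa was lower in 8 of 9 pairs and Ciita in 7 of 9. Over all conditions the WT and RelA-TA-KI ranges of TMM-scaled CPM overlapped for every one of the 7 genes. In bulk RNA, fewer cells of a type and less RNA per cell cannot be told apart.

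**Figure D1:**
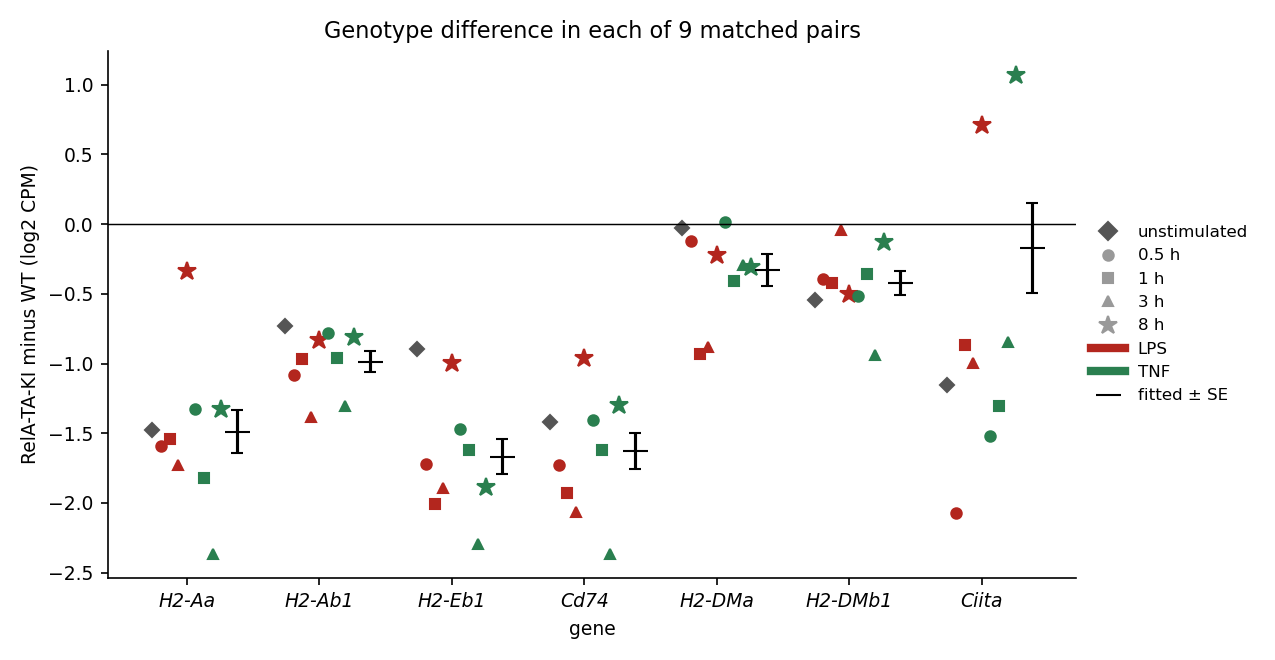
Difference between genotypes (RelA-TA-KI minus WT, log2 CPM) in each of the 9 matched pairs of libraries, with the fitted difference ± SE from edgeR beside each gene. Symbols give the time and colours the stimulus. The points of H2-Aa, H2-Ab1, H2-Eb1 and Cd74 are all below 0, while the 8 h points of Ciita are above 0.

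The same 4 genes, H2-Aa, H2-Ab1, H2-Eb1 and Cd74, passed when the genotypes were compared over the 4 LPS times alone and over the 4 TNF times alone, 4 of 7 in each. In all tested genes 4.52% were lower over LPS times and 2.91% over TNF times. Over LPS times the differences were -1.29 ± 0.24 for H2-Aa, -1.07 ± 0.11 for H2-Ab1, -1.67 ± 0.17 for H2-Eb1 and -1.65 ± 0.21 for Cd74 (edgeR adjusted p from 0.000177 to 0.00919). Over TNF times they were -1.69 ± 0.24, -0.97 ± 0.11, -1.82 ± 0.16 and -1.66 ± 0.21 in the same order (edgeR adjusted p from 0.00011 to 0.00364). The H2-Aa call over LPS times was lost without either LPS 3 h library (adjusted p = 0.0507 without the WT library and 0.0514 without the RelA-TA-KI library) and with no filter on low counts (adjusted p = 0.0625). Tested directly, the genotype difference of LPS times minus that of TNF times passed for 0 of the 7 genes in edgeR, DESeq2 or limma-voom. None of the 7 had an unadjusted p under 0.05, and 0% of all genes passed in edgeR.

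Markers of other cells also differed between the genotypes, and their part in the class II differences was not tested. Among all tested genes 9.46% were lower and 10.3% higher in RelA-TA-KI. Of 6 tested dendritic cell markers, 3 were lower in RelA-TA-KI: Flt3 by 1.05, Dpp4 by 1.18 and Cd209a by 3.50 on the log2 scale. Itgax, the CD11c gene, differed by -0.30 ± 0.12 (edgeR adjusted p = 0.0932). The 10 dendritic cell markers summed to 15.5 to 40.0 CPM in WT and 8.56 to 37.8 CPM in RelA-TA-KI, and none was at 0 in all libraries of a genotype. The 7 B cell markers summed to 10.7 to 18.1 CPM in WT and were higher in RelA-TA-KI at 30.7 to 61.7 CPM, where Blk was at 0 and Ighm rose by 2.06 ± 0.12. Neutrophil markers were lower in RelA-TA-KI for 5 of 5 tested (sums of 147 to 303 CPM in WT against 69.0 to 207 CPM), and fibroblast markers for 3 of 3 (97.8 to 188 CPM against 13.5 to 70.2 CPM). Of 9 macrophage markers, Fcgr1, Cd68 and Itgam were higher in RelA-TA-KI and Csf1r and Lyz2 lower.

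LPS raised all 7 genes and TNF raised 5 over the 4 times together. In both genotypes together, LPS at 8 h raised Ciita by 4.84 ± 0.64 on the log2 scale, Cd74 by 2.32 ± 0.27 and H2-DMa by 1.71 ± 0.24 over unstimulated cells. H2-Aa rose by 1.52 ± 0.34, H2-Ab1 by 1.47 ± 0.16, H2-DMb1 by 1.16 ± 0.19 and H2-Eb1 by 1.09 ± 0.29. All 7 passed the F test over the 4 LPS times (edgeR adjusted p from 8.66e-06 to 0.0192), as 35.8% of all tested genes did in the upward direction. After TNF, 5 of 7 passed in that direction against 16.7% of all genes. H2-Aa (adjusted p = 0.0671) and H2-DMa (adjusted p = 0.0803) did not pass over the 4 TNF times, although both passed at TNF 8 h alone. Over the 4 TNF times H2-Aa did pass with DESeq2 (adjusted p = 0.0264), with limma-voom (0.0395) and in 4 of 18 edgeR runs that left out 1 library. With no filter on low counts H2-Aa lost its LPS call (edgeR adjusted p = 0.105) and Cd74 its TNF call (0.101). H2-Eb1 lost its TNF call without the WT TNF 8 h library, and H2-DMb1 without the RelA-TA-KI unstimulated library. The LPS and TNF responses used the same unstimulated libraries. Without the WT unstimulated library H2-Aa (adjusted p = 0.0616) and H2-Eb1 (adjusted p = 0.247) lost their LPS calls, and 1 of 7 genes, Ciita, passed after TNF. Without the RelA-TA-KI TNF 8 h library 3 of 7 passed after TNF, and calls among all genes were then fewest, at 2336 in either direction. With all libraries, 1893 of 11308 genes were called higher after TNF and 1541 lower. When each library was left out in turn, calls among all genes ran from 2336 to 4234 for TNF and from 7620 to 8128 for LPS.

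**Figure D2:**
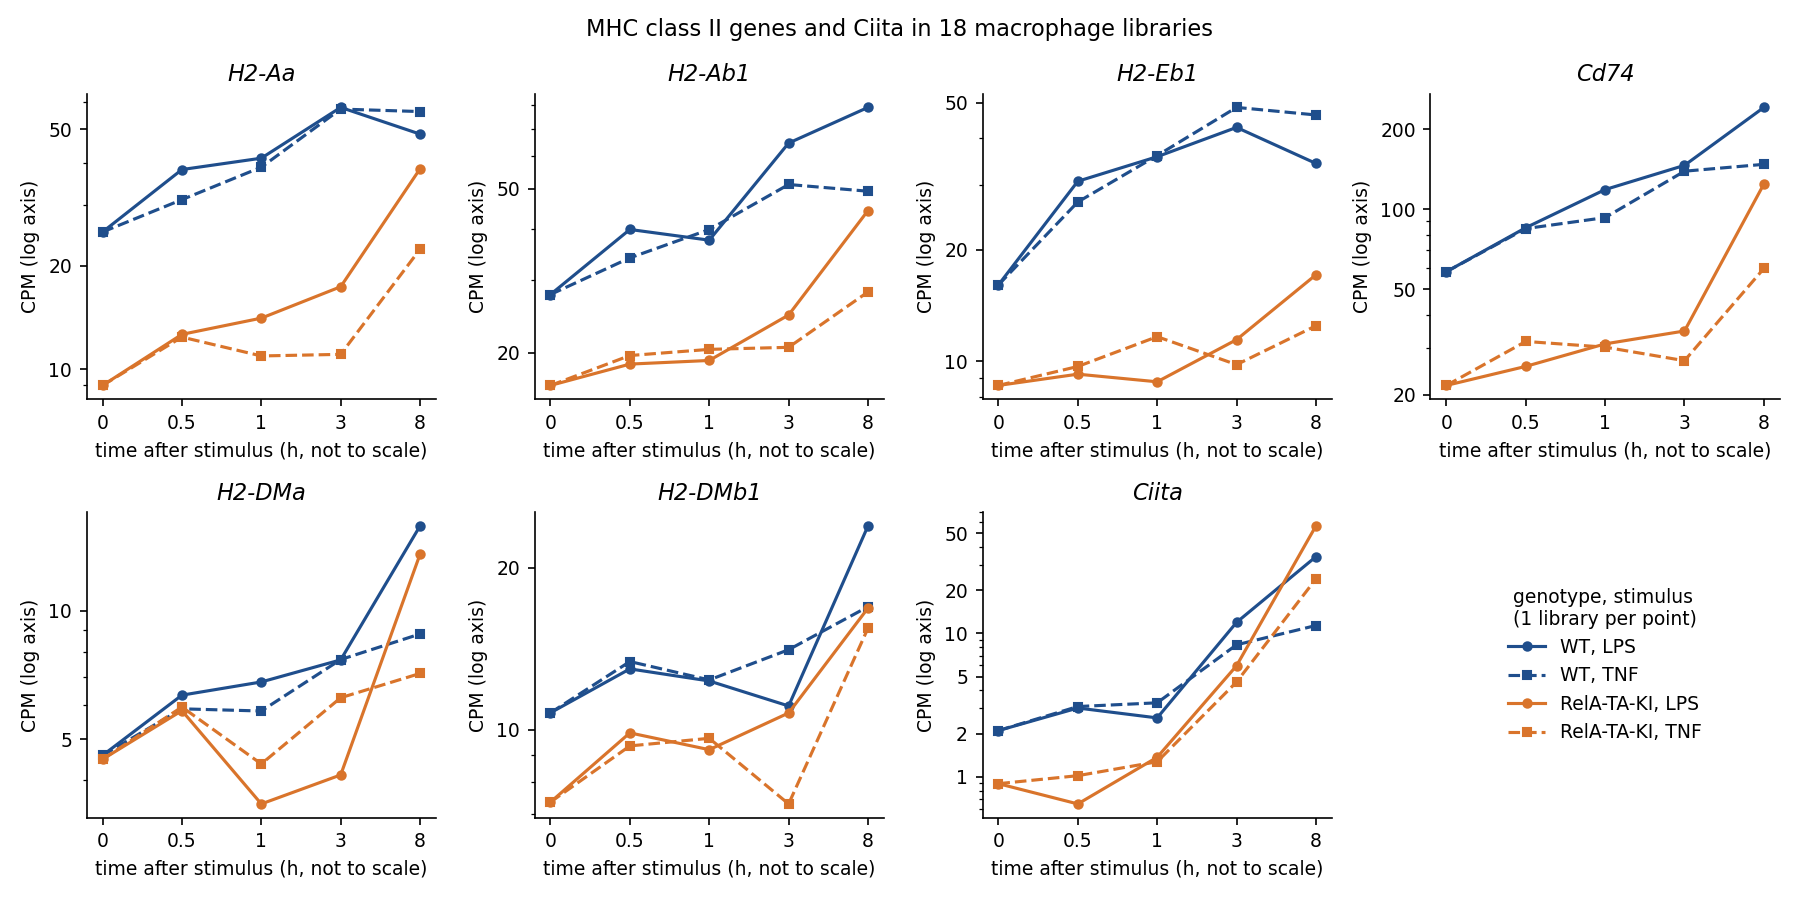
Level of each of the 7 genes (CPM, log axis) against time after LPS (circles, solid) or TNF (squares, dashed) in WT (blue) and RelA-TA-KI (orange), with 1 library per point and the unstimulated library at 0 h. Cd74 in WT climbs from 58.1 CPM to 242 CPM after LPS. Within each stimulus the Ciita lines cross between 3 and 8 h, and the orange line ends above the blue line of that stimulus.

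Calls came at 3 and 8 h. At 0.5 and 1 h none of the 7 genes passed in edgeR after either stimulus. By the same adjusted p, 0.875% of all genes rose at LPS 0.5 h, 4.25% at LPS 1 h, 0.902% at TNF 1 h and 0.38% at TNF 0.5 h. At an unadjusted p under 0.05 there were 2 of 7 at LPS 0.5 h, LPS 1 h and TNF 1 h and none at TNF 0.5 h. The share of all genes at that looser threshold is not given, so these counts cannot be set against the shares above. At LPS 3 h, H2-Aa, H2-Ab1, H2-Eb1, Cd74 and Ciita passed, 5 of 7, where 24.8% of all genes rose. With library totals H2-Aa (adjusted p = 0.117), H2-Eb1 (0.0964) and Cd74 (0.0877) lost the LPS 3 h call, where 12.3% of all genes rose. With no filter on low counts H2-Aa (adjusted p = 0.0825) and Ciita (0.0872) lost it, as they did without the RelA-TA-KI unstimulated library (adjusted p = 0.0538 and 0.0955). At TNF 3 h H2-Ab1 and H2-Eb1 passed, where 7.6% of all genes rose. Without the WT unstimulated or the WT LPS 3 h library, H2-Ab1 was the gene of the 5 that still passed at LPS 3 h. By 8 h all 7 passed after LPS (33.8% of all genes) and after TNF (17.1%). With library totals H2-Aa (adjusted p = 0.118), H2-Eb1 (0.63) and H2-DMb1 (0.326) lost the LPS 8 h call, where 15.4% of all genes rose, and H2-Eb1 lost it without the WT unstimulated library (adjusted p = 0.175). At TNF 8 h H2-DMa lost its call with library totals (edgeR adjusted p = 0.0768), where 1158 of 11308 genes rose. With no filter on low counts H2-Aa lost it (edgeR adjusted p = 0.0753). H2-Aa, H2-Eb1 and H2-DMa lost their TNF 8 h calls without the WT unstimulated or the WT TNF 8 h library. H2-Aa and H2-DMa also lost them without the RelA-TA-KI TNF 8 h library, and H2-Aa without the RelA-TA-KI unstimulated library.

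The levels of the single WT library at each time follow, with no test of their order. H2-Aa went from 25.1 CPM unstimulated to 38.2, 41.2, 58.0 and 48.4 CPM at 0.5, 1, 3 and 8 h of LPS, and to 31.2, 38.8, 57.3 and 56.4 CPM after TNF. H2-Eb1 went from 16.1 CPM to 30.6, 35.7, 42.8 and 34.2 CPM after LPS, and to 26.9, 36.0, 48.5 and 46.3 CPM after TNF. In WT both were highest at 3 h of each stimulus on this scale. H2-Ab1 went from 27.7 CPM to 39.8, 37.5, 64.6 and 78.8 CPM after LPS, and after TNF reached 34.0, 39.8, 51.2 and 49.3 CPM. Its place in time depended on the scaling: per library total, H2-Ab1 had 54.5 CPM at 3 h and 51.5 CPM at 8 h of LPS. On that scale H2-Eb1 had 38.6 CPM at 1 h and 36.2 CPM at 3 h of LPS. Cd74 went from 58.1 CPM to 85.1, 118, 146 and 242 CPM after LPS and to 84.5, 92.9, 139 and 147 CPM after TNF.

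In RelA-TA-KI cells the chain genes and Cd74 were below every WT library until 3 h and, in TMM-scaled CPM, highest at 8 h of LPS. Per library total H2-Ab1 and H2-Eb1 were instead highest after TNF, at 27.0 CPM at 8 h and 13.0 CPM at 1 h. H2-Aa went from 8.96 CPM to 12.6, 14.1, 17.4 and 38.4 CPM after LPS and to 12.4, 10.9, 11.0 and 22.4 CPM after TNF. Cd74 went from 21.7 CPM to 25.6, 31.1, 34.8 and 124 CPM after LPS and to 31.8, 30.2, 26.9 and 59.8 CPM after TNF. The 8 h fold over unstimulated cells was 5.73 for Cd74 in RelA-TA-KI and 4.16 in WT after LPS, with 95% intervals of 4.67 to 7.07 and 3.70 to 4.67 that cover counting error only. With 1 library per genotype at 8 h, these single pairs had no test. H2-Ab1 ended at 44.3 CPM and H2-Eb1 at 17.1 CPM at LPS 8 h in RelA-TA-KI, from 16.7 and 8.61 CPM.

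From 3 to 8 h of LPS, in both genotypes together, Ciita rose further by 2.36 ± 0.52, H2-DMa by 1.32 ± 0.24, Cd74 by 1.25 ± 0.26, H2-DMb1 by 0.89 ± 0.19 and H2-Ab1 by 0.52 ± 0.15 (edgeR adjusted p from 0.000476 to 0.0112). These were 5 of 7 genes, where 26.6% of all genes rose. With library totals 3 of 7 passed, where 13.5% of all genes rose: H2-Ab1 became 0.10 (adjusted p = 0.614) and H2-DMb1 0.47 (adjusted p = 0.0638). H2-Ab1 also lost its call without the RelA-TA-KI LPS 3 h library (adjusted p = 0.104) or the RelA-TA-KI LPS 8 h library (adjusted p = 0.0683), and H2-Aa passed without the WT LPS 8 h library (1.08, adjusted p = 0.00238). H2-Aa changed by 0.41 ± 0.33 and H2-Eb1 by 0.03 ± 0.27, and neither passed. Both H2-DM genes were among those that rose from 3 to 8 h, with H2-DMa at 7.67 CPM in WT at LPS 3 h and 15.8 CPM at LPS 8 h. H2-DMb1 went from 11.1 to 23.9 CPM over the same times.

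At 8 h LPS exceeded TNF for 4 of the 7 genes, where 30% of all genes were higher after LPS. These were Ciita (1.37 ± 0.47, edgeR adjusted p = 0.0261), Cd74 (0.90 ± 0.26, adjusted p = 0.0101), H2-DMa (0.88 ± 0.22, adjusted p = 0.00412) and H2-Ab1 (0.67 ± 0.15, adjusted p = 0.00186). H2-DMb1 (0.32 ± 0.18), H2-Aa (0.29 ± 0.32) and H2-Eb1 (-0.08 ± 0.27) did not pass. Averaged over the 4 matched times, H2-Ab1 alone of the 7 was higher after LPS, by 0.25 ± 0.08 (edgeR adjusted p = 0.0171), where 23.7% of all genes were. That call was lost without the WT LPS 3 h library (adjusted p = 0.0658) or the WT TNF 0.5 h library (adjusted p = 0.0569). The Ciita difference at 8 h lost its call without the WT TNF 8 h library (0.72, adjusted p = 0.233) or the RelA-TA-KI LPS 8 h library (0.64, adjusted p = 0.395), and with DESeq2 (adjusted p = 0.0523), limma-voom (0.129) or no filter on low counts (0.105). Cd74 lost it without the same libraries (adjusted p = 0.103 and 0.148) and with no filter (0.0626).

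These responses depended on how libraries were scaled, because scaling by library totals lowered the median of all genes by 0.95 at LPS 8 h, by 0.25 at TNF 8 h and by 0.70 for LPS minus TNF at 8 h. With library totals, 3 of 7 genes passed the LPS F test (Cd74, Ciita and H2-DMa), where 17.4% of all genes were called higher, and 3 of 7 the TNF F test (H2-Eb1, Cd74 and Ciita), where 11.7% were. At LPS 8 h the 7 genes were then higher by 0.15 (H2-Eb1) to 3.90 (Ciita), or by 1.14 to 4.89 relative to the median of all genes. None of the 4 LPS-over-TNF differences at 8 h passed with library totals, that of H2-Ab1 became -0.03, and H2-Eb1 passed as lower after LPS (-0.77, adjusted p = 0.0172). The share of upward calls among all genes fell from 49.6% to 20.1% for LPS, from 55.1% to 31.7% for TNF and from 48.5% to 14.2% for LPS minus TNF. For the genotype effect it fell from 52.1% to 27.9%, and the 5 genes lower in RelA-TA-KI kept their calls.

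Ciita had the largest fold at 8 h of LPS and of TNF among the 7 genes. In WT it had 2.10 CPM unstimulated, 3.02, 2.58, 11.9 and 34.2 CPM at 0.5, 1, 3 and 8 h of LPS and 3.09, 3.28, 8.32 and 11.3 CPM after TNF. In RelA-TA-KI it had 0.896 CPM unstimulated, 0.648, 1.37, 5.95 and 56.1 CPM after LPS and 1.02, 1.27, 4.58 and 24.0 CPM after TNF. RelA-TA-KI was thus below WT in all 7 pairs up to 3 h and above it in both pairs at 8 h. The early RelA-TA-KI levels rested on 4 to 7 reads each, against 14 to 22 reads in WT up to 1 h. At 8 h of LPS there were 190 reads in RelA-TA-KI (95% Poisson interval 164 to 219) and 106 in WT (86.8 to 128), and at 8 h of TNF 121 (100 to 145) and 63 (48.4 to 80.6). These intervals cover counting error only.

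The fold over unstimulated cells at LPS 8 h was 16.3 in WT (95% counting interval 9.70 to 29.0) and 62.6 in RelA-TA-KI (26.4 to 195). At TNF 8 h it was 5.39 in WT (3.12 to 9.83) and 26.7 in RelA-TA-KI (11.1 to 83.8). Averaged over all 9 conditions the opposite signs left a Ciita difference of -0.17 ± 0.32 (edgeR adjusted p = 0.767). The Ciita difference was -1.48 ± 0.59 over 0.5 and 1 h (edgeR adjusted p = 0.21) and 0.25 ± 0.30 over 3 and 8 h (adjusted p = 0.633), and neither passed. The genotype effect at 3 and 8 h exceeded that at 0.5 and 1 h by 1.73 ± 0.67 and did not pass (edgeR adjusted p = 0.341). By this test 0 of 7 genes passed in edgeR, DESeq2 or limma-voom, 1 of 7 had an unadjusted p under 0.05, and 0.398% of all genes passed in edgeR.

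Ciita and the class II genes did not keep one ratio. There were 11.9 H2-Aa reads per Ciita read in the unstimulated WT library and 1.42 in WT at LPS 8 h. In RelA-TA-KI there were 10.0 unstimulated, 0.684 at LPS 8 h and 0.934 at TNF 8 h. In both 8 h libraries Ciita reads outnumbered H2-Aa reads, before any correction for gene length. By contrast the number of Cd74 reads per H2-Aa read was close in both genotypes, with medians of 2.52 in WT and 2.43 in RelA-TA-KI, and its highest value was 4.99 in WT at LPS 8 h. H2-Aa reads per H2-DMa read had a median of 6.05 in WT and 2.50 in RelA-TA-KI. These ratios lie within a library and so do not depend on its depth or scaling. They are ratios of reads and not of transcripts, as Ciita has 5254 exonic bases and H2-Aa 1874. Per kb of exon, Ciita was below H2-Aa in 9 of 9 libraries of each genotype.

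**Figure D3:**
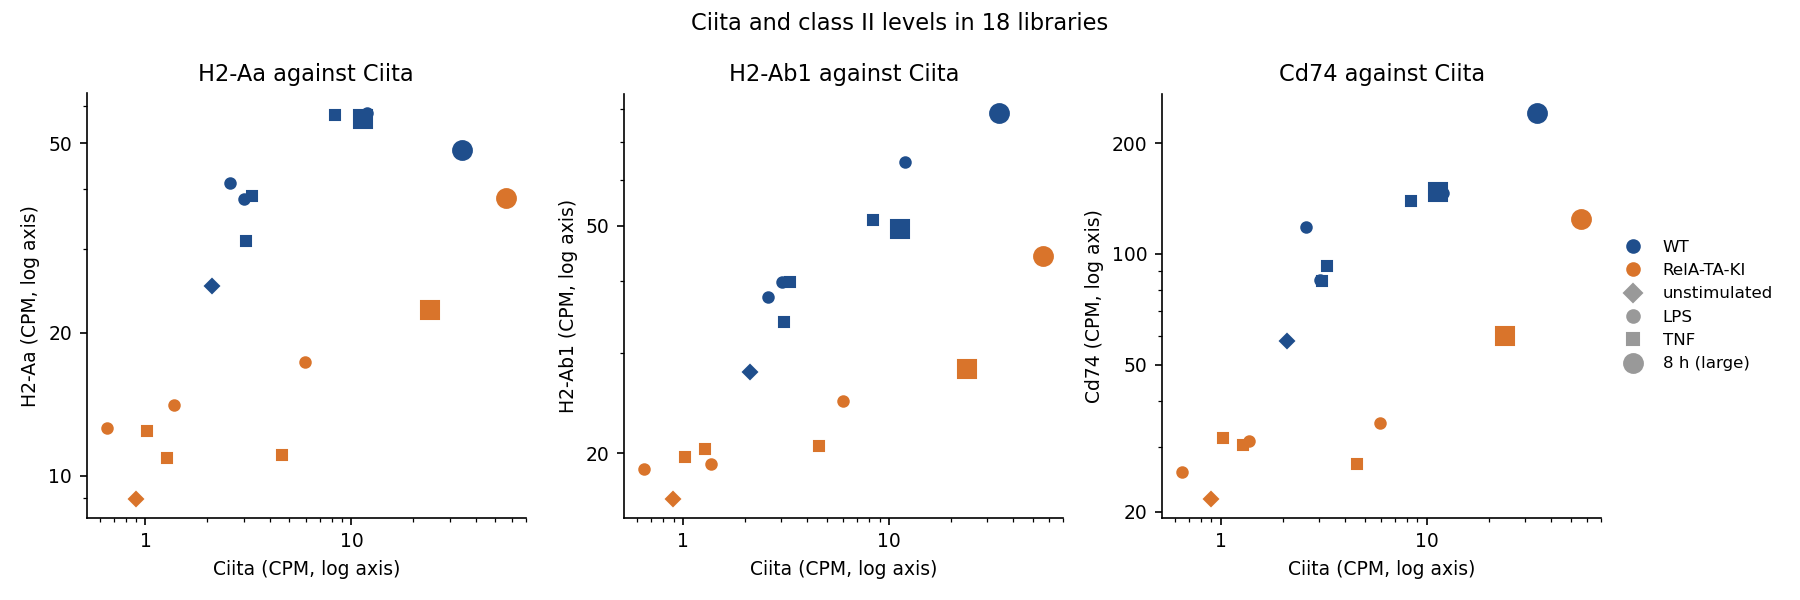
Levels of H2-Aa, H2-Ab1 and Cd74 (CPM, log axes) against Ciita in the 18 libraries, with WT in blue, RelA-TA-KI in orange and 8 h libraries drawn large. At LPS 8 h the RelA-TA-KI library has more Ciita than the WT library (56.1 against 34.2 CPM) and less H2-Aa (38.4 against 48.4 CPM), H2-Ab1 (44.3 against 78.8 CPM) and Cd74 (124 against 242 CPM).

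As a description, the correlation of log2 CPM between H2-Ab1 and Ciita was r = 0.95 over the 9 WT libraries, 0.93 over the 9 RelA-TA-KI libraries and 0.74 over all 18. Between Cd74 and Ciita it was 0.92, 0.90 and 0.72, and between H2-Eb1 and Ciita 0.56, 0.87 and 0.47. H2-Ab1 and Cd74 had r = 0.98 over all 18. These libraries share time points and stimuli, and within a genotype they include the same unstimulated library.

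No gene of the DNA-bound complex that CIITA joins passed between genotypes. Of 7 enhanceosome genes (Rfx5, Rfxank, Rfxap, Nfya, Nfyb, Nfyc and Creb1), 0 passed in edgeR, where 19.7% of all tested genes differed in either direction. With so few genes, the count was not tested against that share. At an unadjusted p under 0.05 there were 2 of the 7, and the share of all genes at that threshold is not given. The median difference was -0.05, and the values ran from -0.25 ± 0.10 for Creb1 to 0.13 ± 0.05 for Nfya. With library totals 1 of the 7 passed as lower, where 1823 of all 11308 genes did. LPS raised Rfx5, the DNA-contacting RFX subunit, by 1.62 and also Nfya and Nfyb, and lowered Rfxap by 1.10, where 35.8% of all genes rose. With library totals 0 of 7 were higher and 6 lower, where 1973 of all 11308 genes were higher and 7853 lower. TNF raised Rfx5 and Rfxank, by 0.92 and 0.74, where 16.7% of all genes rose, and with library totals neither passed.

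Of 7 genes on the route from interferon-gamma to Ciita, Jak2, the receptor kinase, was lower in RelA-TA-KI by 0.29 ± 0.09 (edgeR adjusted p = 0.0315). Irf1, a transcription factor that binds the interferon-responsive Ciita promoter, differed by -1.46 ± 0.59 and did not pass (adjusted p = 0.12). With library totals 2 of the 7 were lower, where 1823 of all 11308 genes were. One call among 7 is near the 19.7% of all genes that differed in either direction. LPS raised 6 of the 7, against 35.8% of all genes, and lowered Ifngr1. TNF raised 5, against 16.7% of all genes. With library totals LPS raised 5 (17.4% of all genes) and TNF 4 (11.7%).

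Among 6 genes that restrain Ciita or its inducers, Bhlhe40 was the 1 gene called, higher in RelA-TA-KI by 0.40 ± 0.10 (edgeR adjusted p = 0.0148), a share near that of all genes. Prdm1, whose protein Blimp-1 represses Ciita, differed by -0.43 ± 0.27 and did not pass. The receptor gene Il10ra had a more positive genotype difference late than early, by 0.94 (edgeR adjusted p = 0.014). LPS raised 5 of the 6, against 35.8% of all genes, with Il10 up by 6.56 and Socs1 by 7.56, and lowered Bhlhe40. Of 6 cofactor genes (Crebbp, Ep300, Kat2b, Smarca4, Ncoa1 and Carm1), 0 passed between genotypes in edgeR, where 19.7% of all tested genes differed in either direction. At an unadjusted p under 0.05 there was 1, and the share of all genes at that threshold is not given. LPS raised 5 of these cofactor genes, against 35.8% of all genes. With library totals 2 were higher and 3 lower, where 1973 of all 11308 genes were higher and 7853 lower.

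Of 10 genes that process antigen for class II molecules or set the turnover of these molecules, 5 were higher in RelA-TA-KI and 0 lower, against 10.3% of all genes higher. They were the cysteine proteases Ctsl (0.62 ± 0.07), Ctsb (0.18 ± 0.04) and Ctss (0.16 ± 0.05), the asparagine endopeptidase Lgmn (0.44 ± 0.05) and Ifi30, which reduces disulfide bonds (0.38 ± 0.05). With library totals 4 passed and Ctss did not, where 705 of all 11308 genes were higher. Cd83, which protects class II molecules from turnover, differed by -0.93 ± 0.38 and did not pass (edgeR adjusted p = 0.124). In WT and RelA-TA-KI together LPS raised 6 of the 10, against 35.8% of all genes, and lowered March8. With library totals 2 were higher and 7 lower. These shares are near those of all genes, with 1973 of 11308 higher and 7853 lower.

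MHC class I genes, which present peptides from the cytosol, were not lower in RelA-TA-KI. Of 9, 5 were higher in RelA-TA-KI and 0 lower: B2m, the class I light chain (0.43 ± 0.04), Nlrc5, the class I counterpart of Ciita (0.36 ± 0.10), H2-K1 (0.35 ± 0.07), Psmb9 (0.32 ± 0.09) and H2-D1 (0.30 ± 0.05). In all tested genes 10.3% were higher and 9.46% lower. With library totals B2m, H2-K1 and H2-D1 passed, where 705 of all 11308 genes were higher. All 9 rose after LPS and after TNF under both scalings. Of all genes 35.8% rose after LPS and 16.7% after TNF, or 17.4% and 11.7% with library totals. For Nlrc5 the genotype difference was more negative late than early, by -0.64 ± 0.11 (edgeR adjusted p = 0.038). The Ciita value had the opposite sign but did not pass, and Nlrc5 and Ciita were not tested against each other.

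**Figure D4:**
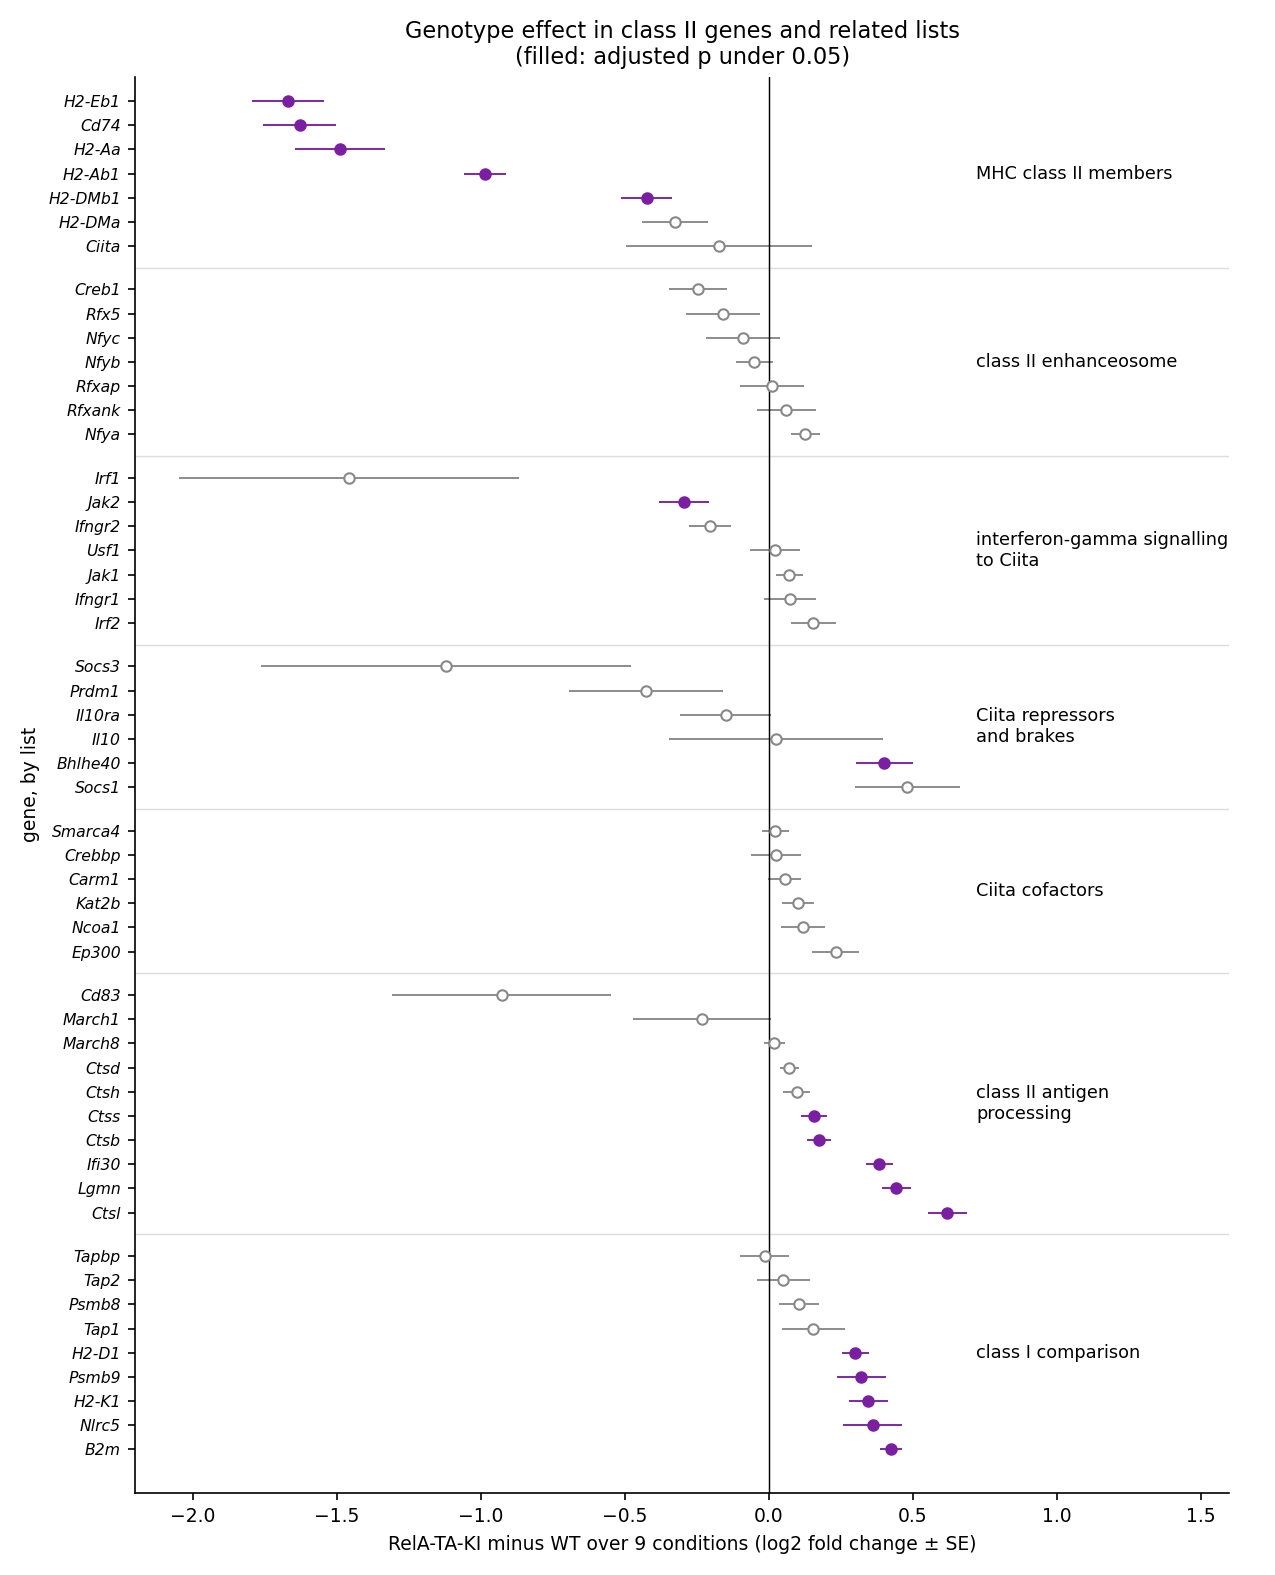
Genotype effect over the 9 conditions (RelA-TA-KI minus WT, log2 fold change ± SE from edgeR) for the 7 genes and for the genes of 6 related lists, filled where the adjusted p is under 0.05. H2-Eb1, Cd74, H2-Aa and H2-Ab1 are the filled points farthest left, with the unfilled Irf1 (-1.46) and Cd83 (-0.93) in the same range. The enhanceosome genes lie near 0 and the filled class I and antigen processing genes on the right.

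The other 5 class II genes of the table that were listed had too few reads to test. H2-DMb2 had 66 reads over the 18 libraries, H2-Oa 34, H2-Ob 60, H2-Eb2 39 and the pseudogene H2-Ea-ps 1. H2-Oa and H2-Ob encode H2-O, the inhibitor of H2-DM, and are known mainly from B cells.

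Among 8309 genes ranked by likeness of their log2 CPM over the 18 libraries, those nearest to Ciita were Mmp14 (r = 0.96), Fabp3 (0.96), Nrp2 (0.95), Gpr132 (0.95) and Adamtsl5 (0.95). Those nearest to the mean of H2-Aa, H2-Ab1, H2-Eb1 and Cd74 were Itgal (0.92), Lox (0.92), Marco (0.90), Cpq (0.89) and Gda (0.88). Likeness was taken over both genotypes, so the genotype difference of the class II genes is part of what chose these genes.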

How the data were processed

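The authors deposited a table of raw counts per gene that are not normalized, 1 column per library. The tools named per the submitters' processing notes are cutadapt 1.12, STAR and featureCounts 1.5.0, with the build mm10. How strand was set in counting, and which annotation release was used, is not given in the sources used here. Per the labels' protocols, libraries were made with a stranded poly(A) kit.

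All 18 libraries were fitted together in edgeR 4.0.16 (R 4.3.3) with TMM factors, filterByExpr (minimum count 10, minimum total 15), robust quasi-likelihood tests and Benjamini-Hochberg adjustment over 11308 genes at 0.05. Condition was a block, and the spread was that of the genotype difference among the 9 pairs (8 residual degrees of freedom, and 6 for effects by stimulus or phase). An SE is the log2 difference divided by the root of F. The common biological coefficient of variation was 0.111. A response was an F test over 4 times, with the direction of the largest change. Libraries held 4663650 to 6721917 counts, and these totals times their TMM factors ran from 3100124 to 8096887. CPM used the same factors with library totals taken over the 11308 tested genes, and log2 CPM used a prior count of 0.5. Intervals on counts are exact Poisson at 95%.

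Genes named beside the 7 came from textbook lists (every gene where a list had 8 or fewer, otherwise by counts with examples) and from the 5 highest Pearson r with Ciita or with the class II mean among genes with a mean log2 CPM of 3 or more. Examples from the longer lists were chosen after their values were seen. The members and lists were chosen with earlier results of these data known. One gene of the interferon-gamma list is not reported here. Promoters came from a RefSeq table on GRCm38.p6. Alternatives were library totals, DESeq2 size factors, no filter, 1 CPM in 9 libraries, DESeq2 1.42.0, limma-voom (limma 3.58.1) and leaving out each library. The genotype fit over 9 conditions was run on simulated counts with known genotype changes that were the same in every condition. The other fits, and changes that vary with time, were not simulated.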

Additional observations from a re-analysis of the deposited data

Results flagged for a closer look

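Ciita was singled out because its genotype difference had opposite signs at different times. RelA-TA-KI was above WT in both pairs at 8 h, by a mean of 0.89 on the log2 CPM scale, and below WT in all 6 stimulated pairs at 0.5, 1 and 3 h, with a mean of -1.27. The gap between these means was 2.16. This split by sign was chosen from the values and was not tested. The fit with 3 and 8 h as late times gave 1.73 and did not pass (edgeR adjusted p = 0.341).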

How the results depend on the processing

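With 1 library per genotype and condition, every test borrowed its spread from other conditions, and Ciita rested on 4 to 7 reads in each of the 5 RelA-TA-KI libraries up to 1 h. The fit already compared the genotypes within each condition, and the labels carry no replicate numbers for a further block. The 5 genes lower in RelA-TA-KI over 9 conditions kept that call under every alternative run, with 5 called whichever library was left out, and H2-DMa joined them with library totals.

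With library totals, 3 of 7 genes passed for the LPS response and 3 of 7 for the TNF response. Among all genes, the late against early genotype effect was called for 45 in the fit described above, 29 with library totals, 152 with no filter and 122 with DESeq2. The LPS against TNF genotype effect was called for 0, 3 with no filter and 4 with DESeq2. With late set to 8 h, 1 of the 7 genes passed, but that split was drawn where the Ciita values had been seen to change sign and tests nothing independent of them.

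Signs turned in these cases, none of which passed the test in the new direction. Ciita between genotypes with limma-voom became 0.064 over 9 conditions, 0.058 over LPS times and 0.13 over TNF times. Library totals gave, for LPS minus TNF over matched times, -0.093 for H2-Aa, -0.062 for H2-Ab1, -0.019 for Cd74, -0.13 for H2-DMa and -0.22 for H2-DMb1. They gave -0.14 for H2-DMa and -0.26 for H2-DMb1 at LPS 3 h, and -0.41 for H2-Aa, -0.033 for H2-Ab1 and -0.38 for H2-DMb1 for LPS minus TNF at 8 h. From 3 to 8 h of LPS they gave -0.011 for H2-Aa and -0.38 for H2-Eb1. For H2-Eb1 that value was also -0.024 with no filter and -0.058 with limma-voom, and its LPS minus TNF value at 8 h was 0.028 with DESeq2. The cause was not tested.

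Leaving out 1 library at a time gave 575 to 1129 calls among all genes for the genotype effect over LPS times and 286 to 899 over TNF times. The counts were 0 to 1 for its difference between LPS and TNF and 13 to 76 for late against early. Over LPS times either LPS 3 h library moved the count most (578 without the WT one), and over TNF times each of the 8 TNF libraries lowered it to 359 or less. For late against early the count was 13 to 16 without a LPS 0.5 h, LPS 1 h or TNF 0.5 h library of either genotype and 68 to 76 without a LPS 3 h, LPS 8 h or TNF 3 h library. Of the 7 genes, 1 to 6 passed for the TNF response (6 without the WT LPS 8 h library) and 0 to 3 for LPS minus TNF over matched times (3 without the WT LPS 8 h library, 2 without the WT TNF 3 h library, and 0 without the WT LPS 3 h or WT TNF 0.5 h library). Among all genes the counts in either direction were 2336 to 4234 for the TNF response and 4934 to 5810 for LPS minus TNF over matched times. Ciita between genotypes ran from -1.19 to 0.13 over LPS times and from -1.14 to 0.21 over TNF times. For LPS minus TNF over matched times, H2-Eb1 ran from -0.14 to 0.076 and Ciita from -0.012 to 0.59. At 8 h H2-Aa ran from -0.37 to 0.98 and H2-Eb1 from -0.43 to 0.36. From 3 to 8 h of LPS, H2-Aa ran from -0.24 to 1.08 and H2-Eb1 from -0.29 to 0.47.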
